A study of Homo sapiens with 6 samples.

Results

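The genes described here lie in 1 interval on the long arm of chromosome 13, from STARD13 in 13q13 to WDFY2 in 13q14. They were chosen because earlier results of these data showed them rising together in cells labelled as HS3ST2-transfected. They are not an unbroken run, since 56 other measured genes lie among them. The list names 59 genes, of which 58 were measured, by 157 probe sets, among 19775 measured genes. PHF11 had no probe set with a single gene symbol and is not analysed here. Values are averages over the probe sets of a gene, kept in genome order.

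The study used MDA-MB-231, an established line of human breast cancer cells. HS3ST2 encodes an enzyme that adds 3-O-sulfate groups to heparan sulfate. Of the 6 arrays, 3 came from MDA-MB-231 cells transfected with an HS3ST2 expression plasmid and 3 from MDA-MB-231 cells that received a control vector. The labels do not state the plasmid's promoter, the time after transfection, any selection or cloning, or whether replicates were separate cultures. The p-values therefore measure only the spread between these arrays, which may be technical.

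Genes that neighbour each other on a chromosome share its copy number and part of its chromatin setting, although each has its own promoter and may serve an unrelated process. The 13q14 band is best known for RB1, a classic tumour suppressor gene, and for a segment telomeric of it that is often lost in chronic lymphocytic leukaemia. The genes between STARD13 and WDFY2 encode parts of transcription complexes, Golgi tethers, ubiquitin ligases, mitochondrial enzymes, receptors and a leukocyte actin bundler, so they form a neighbourhood and not a pathway.

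The starts of 4 genes are shown for the results that turn on them. MED4 and LCP1 are the members with the largest differences, and NUFIP1 and GPALPP1 are the head-to-head neighbours with the closest starts, 67 bases apart, so that their windows overlap by 166 bases. Each window runs from 250 bases before to 50 bases after a RefSeq start on GRCh38.p14, printed 5′ to 3′ in the gene's own direction. The windows are chr13:48095055-48095354 (minus strand) for MED4, chr13:46182128-46182427 (minus) for LCP1, chr13:44989422-44989721 (minus) for NUFIP1 and chr13:44989288-44989587 (plus) for GPALPP1. Capitals mark 3 short motifs searched on both strands, the TATAAA letters of a TATA box, the GGGCGG letters of a GC box and the CCAAT letters of a CCAAT box. None of the matches printed overlap.
MED4: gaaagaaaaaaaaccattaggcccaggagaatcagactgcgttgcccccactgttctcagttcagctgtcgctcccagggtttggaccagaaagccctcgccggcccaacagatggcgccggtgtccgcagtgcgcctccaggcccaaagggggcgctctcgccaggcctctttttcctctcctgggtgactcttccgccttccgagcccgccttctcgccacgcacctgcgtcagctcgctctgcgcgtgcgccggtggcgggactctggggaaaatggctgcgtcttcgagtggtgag
LCP1: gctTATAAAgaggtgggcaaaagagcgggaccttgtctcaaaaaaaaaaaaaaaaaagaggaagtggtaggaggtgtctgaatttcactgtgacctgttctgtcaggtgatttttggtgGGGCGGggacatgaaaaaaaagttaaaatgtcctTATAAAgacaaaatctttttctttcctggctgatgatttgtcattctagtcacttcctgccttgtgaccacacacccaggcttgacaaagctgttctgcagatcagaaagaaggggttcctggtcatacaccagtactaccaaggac
NUFIP1: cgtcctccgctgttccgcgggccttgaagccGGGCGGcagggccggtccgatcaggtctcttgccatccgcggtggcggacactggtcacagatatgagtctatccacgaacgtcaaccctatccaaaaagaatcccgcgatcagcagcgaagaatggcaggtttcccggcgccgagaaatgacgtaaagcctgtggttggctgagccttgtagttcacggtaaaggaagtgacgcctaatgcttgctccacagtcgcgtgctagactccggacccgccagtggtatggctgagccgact
GPALPP1: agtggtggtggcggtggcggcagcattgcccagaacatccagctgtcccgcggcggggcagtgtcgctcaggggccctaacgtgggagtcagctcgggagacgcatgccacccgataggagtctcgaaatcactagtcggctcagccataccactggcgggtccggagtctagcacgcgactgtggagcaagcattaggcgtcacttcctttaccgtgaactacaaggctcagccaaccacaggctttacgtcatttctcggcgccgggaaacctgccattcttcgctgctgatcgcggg
The MED4 window held 24 CpG dinucleotides and none of the 3 motifs, whereas the LCP1 window held 2 CpG, 2 TATA box matches and 1 GC box match. NUFIP1 and GPALPP1 had 27 and 25 CpG in windows that share 166 of their 300 bases. RefSeq gave 76 such windows for 53 members, with a median of 21 CpG against 14 in all 35116 windows. The median share of G and C was 58.5% against 58.7%. All windows were not limited to protein-coding genes, while 57 of the 58 members are protein coding. The GC box letters were found in 53.9% of the members' windows, against 45% of all windows. The TATA box letters were in 18.4% against 11.5%, and the CCAAT box letters in 36.8% against 34.6%. A match is a run of letters only, and these shares were not tested.

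The deposited values are centred, so each probe set has a median of 0 over the 6 arrays and only differences between arrays can be read. Levels of genes cannot be compared, and whether a member lies near background is unknown. For the same reason the defining markers of MDA-MB-231 cells cannot be checked for presence. HS3ST2 itself had values of 0.16, 0.04 and -0.04 in the HS3ST2 arrays and -0.22, 0.17 and -0.11 in the control arrays. The single HS3ST2 probe set thus overlapped between the groups (difference 0.11 ± 0.10 log2, SE, n = 3 each, limma adjusted p 0.523) and gives no check of the labels. Whether that probe set matches the plasmid's transcript is not known. Directions below rest on the labels, and the arrays are called HS3ST2-labelled. The ribosomal RNA control probe sets moved with the groups too, with medians of 0.02, 0.16 and 0.74 in HS3ST2-labelled arrays and -0.20, -0.06 and -0.29 in control arrays. The part of the ribosomal RNA signal in the members' differences was not tested.

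Because the members were chosen from this same contrast, their differences are a description. Differences are log2, HS3ST2-labelled minus control, beside limma's moderated SE. In bulk RNA a change in every cell and a change in the share of some cells cannot be told apart. Of the 58 members, 50 had a difference above 0 and 8 below 0, with a median of 0.24, a lowest value of -0.13 and a highest of 0.84. Of all 19775 genes, 52.3% had a difference above 0, and their median was 0.01. In the fit across all genes 32 members were called higher at an adjusted p under 0.05 and 0 lower, where 11.5% of all genes were called higher and 13% lower. In 39 members every HS3ST2-labelled array lay above every control array and in 1, CCNA1, every one lay below, where the groups were apart upward for 19.5% of all genes and downward for 20.9%, or 40.4% in either direction. Nothing is read from these shares, since the choice of members fixes them.

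The 3 arrays of a group were close to each other over the members. The median of the 58 members was 0.13, 0.11 and 0.12 in the HS3ST2-labelled arrays, against -0.11, -0.12 and -0.13 in the control arrays. The medians of the groups did not overlap, which the choice of members fixes. Over all genes the same medians lay between -0.004 and 0.006.

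**Figure D1:**
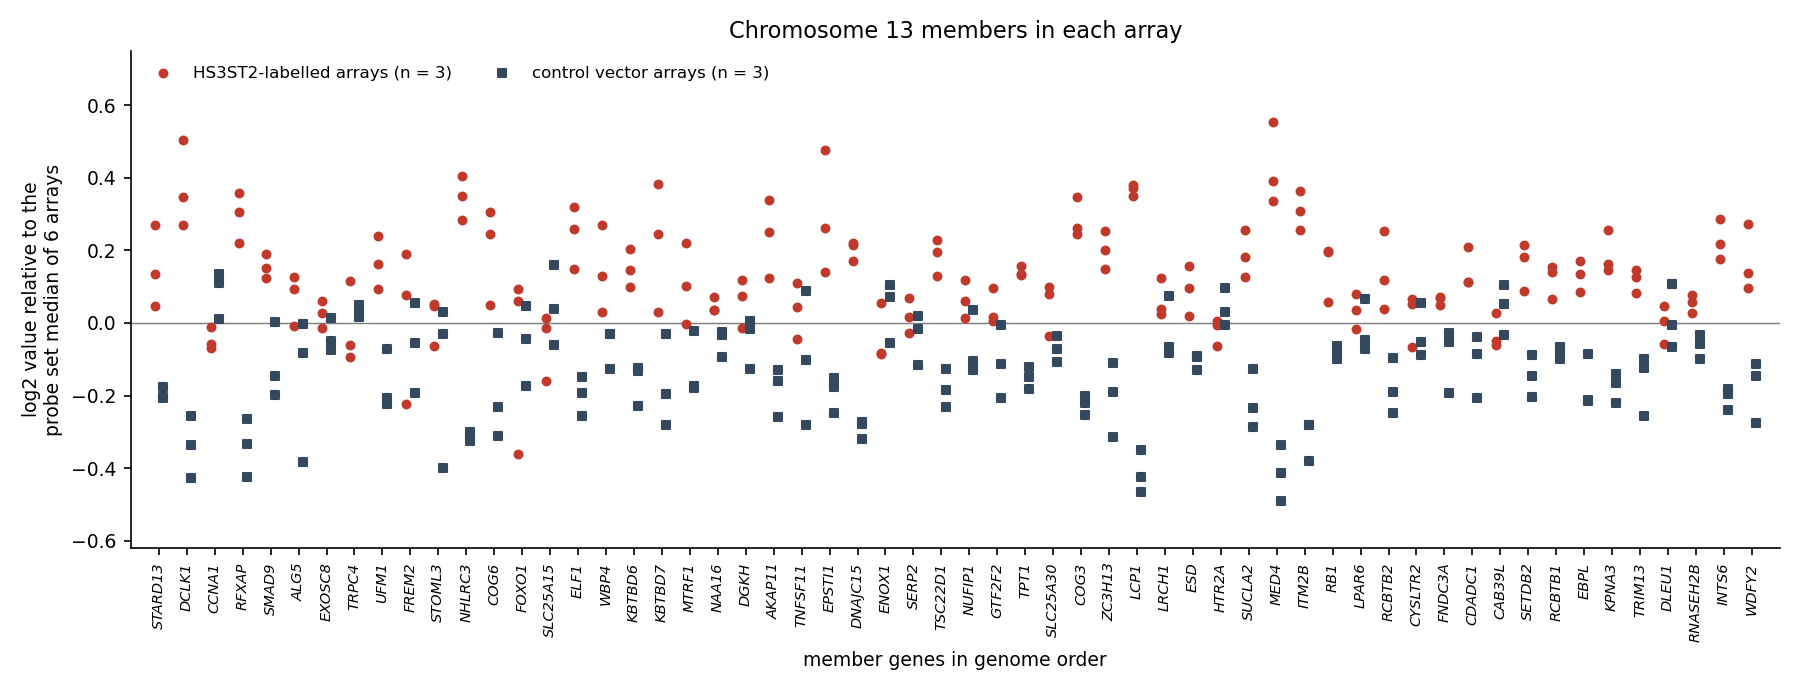
Each point is the log2 value of a member gene in 1 array, relative to the median of its probe sets over the 6 arrays (y axis), with the 58 members in genome order (x axis), HS3ST2-labelled arrays as circles and control vector arrays as squares (n = 3 each). For 39 members all 3 circles lie above all 3 squares, and CCNA1 is the member for which they all lie below.

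Among genes of transcription and RNA, 9 of 16 were called higher, with a median difference of 0.25. Counts of this and the other role groups stand beside 32 of all 58 members and 11.5% of all genes called higher. Nothing is read from them, since the members were chosen from this contrast. MED4, a subunit of the Mediator complex that links transcription factors to RNA polymerase II, had values of 0.39, 0.55 and 0.34 in HS3ST2-labelled arrays and -0.49, -0.34 and -0.41 in control arrays. Its difference of 0.84 ± 0.07 (SE, n = 3 each), or 1.79-fold, was the largest of the members, and both of its probe sets were called (0.69 and 1.00). RFXAP, which belongs to the RFX complex at MHC class II promoters, had 0.36, 0.31 and 0.22 in HS3ST2-labelled arrays and -0.27, -0.33 and -0.42 in control arrays, a difference of 0.64 ± 0.06. ELF1, an ETS transcription factor, had 0.32, 0.15 and 0.26 in HS3ST2-labelled arrays and -0.15, -0.19 and -0.26 in control arrays, a difference of 0.44 ± 0.06. INTS6, a subunit of the Integrator complex that processes small nuclear RNAs, had 0.18, 0.22 and 0.29 in HS3ST2-labelled arrays and -0.20, -0.18 and -0.24 in control arrays, a difference of 0.43 ± 0.05. For each of these 4 genes the groups did not overlap. Of the probe sets, 1 of 2 was called for RFXAP (0.99, against 0.29), 2 of 2 for ELF1 and 3 of 4 for INTS6.

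RB1, whose product restrains E2F factors, stood lower in this order. Its values were 0.19, 0.20 and 0.06 in HS3ST2-labelled arrays and -0.10, -0.08 and -0.06 in control arrays, a difference of 0.23 ± 0.06. The groups did not overlap, yet its 2 probe sets gave 0.34, which was called, and 0.12, which was not, and the call of the gene was lost without control replicate 1, 2 or 3 or HS3ST2 replicate 1 or 2. The other called genes of this role were ZC3H13, a cofactor of m6A methylation (0.41 ± 0.07), the leucine zipper gene TSC22D1 (0.37 ± 0.06), SETDB2, a SET domain gene (0.31 ± 0.06), and SMAD9, a transducer of BMP signals (0.27 ± 0.07). The call of SMAD9 was lost without control replicate 1 or 2 or HS3ST2 replicate 2 or 3. WBP4, a splicing factor (0.21), GTF2F2, a subunit of TFIIF (0.15), NUFIP1 (0.13), RNASEH2B (0.12) and EXOSC8, a subunit of the RNA exosome (0.06), were above 0 without a call. FOXO1, a forkhead factor under insulin control, had 0.09, -0.36 and 0.06 in HS3ST2-labelled arrays and -0.04, 0.05 and -0.17 in control arrays, a difference of -0.01 ± 0.12. DLEU1, a non-coding gene named for its deletion in leukaemia, had a difference of -0.01 ± 0.06. In both of these the groups overlapped.

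All 7 members grouped as ubiquitin and UFM1 system genes, some by their domains alone, were called higher, with differences between 0.20 and 0.66. Of all members 32 of 58 were called higher, and of all genes 11.5%. The count is not read as a trait of the ubiquitin system, since the members were chosen from this contrast. NHLRC3, an NHL repeat gene, had 0.35, 0.28 and 0.40 in HS3ST2-labelled arrays and -0.32, -0.30 and -0.31 in control arrays, a difference of 0.66 ± 0.05 in which all 3 probe sets were called. KBTBD7 and KBTBD6, neighbouring adaptors of cullin 3 ubiquitin ligases, differed by 0.39 ± 0.10 and 0.31 ± 0.06. They are close paralogs whose probes could share signal. UFM1, a ubiquitin-like modifier, differed by 0.33 ± 0.07, RCBTB2 and RCBTB1 by 0.32 ± 0.07 and 0.20 ± 0.05, and TRIM13, a ubiquitin ligase of the endoplasmic reticulum, by 0.28 ± 0.06. The calls of KBTBD7, RCBTB1 and RCBTB2 were lost when single arrays were left out, KBTBD7 without control replicate 1 or 3 or HS3ST2 replicate 1 or 3, RCBTB1 without control replicate 2 or 3 or HS3ST2 replicate 2 or 3, and RCBTB2 without control replicate 2.

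Of 8 genes of the secretory pathway and membranes, 4 were called higher and all 8 lay above 0. ITM2B, a membrane protein that restrains processing of the amyloid precursor, had 0.26, 0.36 and 0.31 in HS3ST2-labelled arrays and -0.38, -0.28 and -0.28 in control arrays, a difference of 0.62 ± 0.06. COG3, a subunit of the Golgi tethering complex COG, had 0.35, 0.24 and 0.26 in HS3ST2-labelled arrays and -0.25, -0.20 and -0.22 in control arrays, a difference of 0.51 ± 0.05. Its partner COG6 differed by 0.39 ± 0.09 and EBPL by 0.30 ± 0.06, although the call of COG6 was lost without control replicate 1 or 2 or HS3ST2 replicate 1 or 2. ALG5, which makes dolichyl-phosphate glucose, was at 0.23 ± 0.10 with no call. Its 3 probe sets gave 0.48, 0.37 and -0.17. SERP2 (0.06), FREM2 (0.08) and STOML3 (0.14) overlapped between the groups.

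Of 5 mitochondrial genes, 2 were called higher. DNAJC15, a co-chaperone of the inner membrane, had 0.21, 0.17 and 0.22 in HS3ST2-labelled arrays and -0.28, -0.27 and -0.32 in control arrays, a difference of 0.49 ± 0.05. SUCLA2, the ATP-linked beta subunit of succinyl-CoA ligase, had 0.13, 0.26 and 0.18 in HS3ST2-labelled arrays and -0.23, -0.13 and -0.29 in control arrays, a difference of 0.40 ± 0.06. The groups were apart for both genes. MTRF1, a mitochondrial release factor (0.23), and the carrier SLC25A30 (0.12) were above 0 without a call, and SLC25A15, the ornithine carrier, was at -0.10 ± 0.08.

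Signalling genes, receptors and ligands had the lowest median of the role groups, 0.11, and 4 of 11 were called higher. DCLK1, a kinase bound to microtubules, had 0.35, 0.27 and 0.50 in HS3ST2-labelled arrays and -0.34, -0.43 and -0.26 in control arrays, a difference of 0.71 ± 0.08. AKAP11, an anchor of protein kinase A, had 0.34, 0.12 and 0.25 in HS3ST2-labelled arrays and -0.26, -0.13 and -0.16 in control arrays, a difference of 0.42 ± 0.07. STARD13, at the centromeric end of the interval, and WDFY2, an endosomal protein at its telomeric end, both differed by 0.35 ± 0.07. The cell-surface genes gave smaller values that overlapped between the groups. TNFSF11, which encodes RANKL, had -0.04, 0.04 and 0.11 in HS3ST2-labelled arrays and -0.28, 0.09 and -0.10 in control arrays, a difference of 0.14 ± 0.09. DGKH, a diacylglycerol kinase (0.11), the lysophosphatidic acid receptor LPAR6 (0.05), the leukotriene receptor CYSLTR2 (0.05), the cation channel TRPC4 (-0.05), the serotonin receptor HTR2A (-0.06) and CAB39L, a partner of the kinase LKB1 (-0.07), lay close to 0.

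Of the remaining 11 members, 6 were called higher. LCP1, an actin bundler typical of leukocytes that many tumour lines also make, had 0.37, 0.35 and 0.38 in HS3ST2-labelled arrays and -0.46, -0.43 and -0.35 in control arrays, a difference of 0.78 ± 0.05 in its single probe set. EPSTI1, an interferon-induced gene, had 0.14, 0.26 and 0.48 in HS3ST2-labelled arrays and -0.18, -0.25 and -0.15 in control arrays, a difference of 0.48 ± 0.09. The groups were apart for both. The importin gene KPNA3 differed by 0.36 ± 0.06, TPT1, the translationally controlled tumour protein, by 0.29 ± 0.05 with all 5 probe sets called, CDADC1 by 0.26 ± 0.06 and the esterase gene ESD by 0.19 ± 0.06. TPT1 has many processed copies in the genome that could share its probes. The call of ESD was lost when any array other than HS3ST2 replicate 3 was left out, and that of CDADC1 without control replicate 3 or HS3ST2 replicate 2. FNDC3A (0.16), NAA16 (0.10) and LRCH1 (0.09) were above 0 without a call, and ENOX1 was at -0.08. CCNA1, a cyclin best known from testis, had -0.06, -0.07 and -0.01 in HS3ST2-labelled arrays and 0.11, 0.14 and 0.01 in control arrays, a difference of -0.13 ± 0.06.

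Members that many tissues switch off were also read apart from the others, as a description. A list of 12 genes of restricted expression, drawn up from general knowledge with earlier results known, held DCLK1, SMAD9, CCNA1, TRPC4, FREM2, STOML3, TNFSF11, ENOX1, SERP2, HTR2A, CYSLTR2 and LCP1. Their median difference was 0.07, their differences ran from -0.13 to 0.78, and 3 of 12 were called higher, namely DCLK1, SMAD9 and LCP1, where 11.5% of all genes were. LCP1 and DCLK1 had the largest differences of all members after MED4. The other 46 members had a median of 0.30, and 29 were called higher. The difference between these lists was not tested. The medians of the 12 genes were 0.05, 0.05 and 0.003 in HS3ST2-labelled arrays and -0.09, 0.04 and -0.01 in control arrays, so the groups overlapped, while those of the other 46 genes were 0.14, 0.12 and 0.13 against -0.12, -0.13 and -0.18. The windows at the starts of the 12 genes had a median of 9 CpG, those of the others 21.

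LCP1, TNFSF11 and CYSLTR2 are genes of leukocytes, so 18 leukocyte markers were read beside them. Of these, 2 were called higher and 1 lower, where 11.5% and 13% of all genes were, and the median of the list was 0.05. ITGB2, an integrin chain of leukocytes, differed by 1.11 ± 0.05 and CORO1A by 0.37 ± 0.07, and LAPTM5 was lower (-0.59 ± 0.07; limma adjusted p 9.07e-06, 0.00754 and 5.05e-04). PTPRC, the common leukocyte antigen, was at -0.08 ± 0.07 (limma adjusted p 0.487). The array medians of the list ran from 0.03 to 0.10 in HS3ST2-labelled arrays and from -0.07 to 0.01 in control arrays. Among 7 markers of basal or mesenchymal breast lines 4 were lower and 0 higher, with CD44 at -0.59 and ANXA1 at -0.33, and among 8 luminal markers 2 were higher and 0 lower, with CDH1 at 0.42 and KRT18 at 0.26 (limma adjusted p 2.21e-04, 0.0128, 0.0130 and 0.0220). KRT18 lost its call without control replicate 2 or 3 or HS3ST2 replicate 1 or 2. Some markers of both lists had the opposite sign, without a call. Of the basal markers 2 lay above 0, AXL (0.15 ± 0.06) and CAV1 (0.07 ± 0.07). Of the luminal markers 2 lay below 0, EPCAM (-0.08 ± 0.06) and PGR (-0.14 ± 0.05), and for PGR the groups did not overlap. The part of these markers in the members' differences was not tested.

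Probe sets of a member often differed in size. Of the 157 probe sets, 63 were called higher and 0 lower in the fit over all probe sets, where 7.9% of all probe sets were called higher and 8.98% lower. Of the 58 members, 41 had at least 1 probe set called higher, beside 2685 of all 19775 genes. A gene with more probe sets has more chances of such a call. DCLK1 spread most, with 1.53, 0.95, 0.29 and 0.09 in its 4 probe sets. SETDB2 had 4 probe sets between 0.43 and 0.80 that were called and 2 at -0.12 and -0.23 that were not. In contrast the 5 probe sets of TPT1 lay between 0.27 and 0.33 and the 3 of NHLRC3 between 0.55 and 0.74. Averaging therefore understates members such as DCLK1, SMAD9 (0.59 and -0.05) and WDFY2 (0.77, 0.50, 0.12 and 0.00) relative to their most changed probe set.

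**Figure D2:**
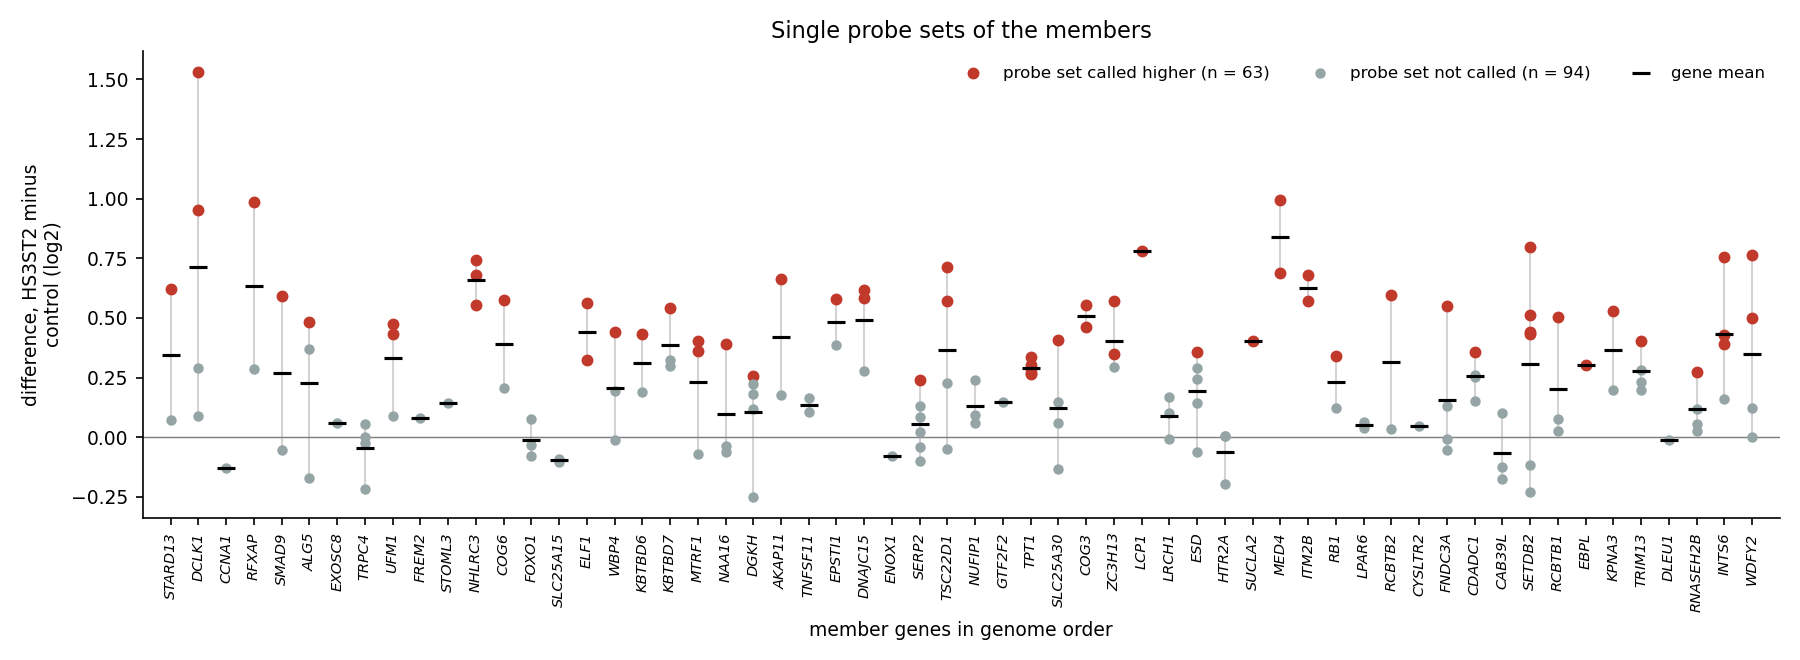
Each point is the difference of 1 probe set, HS3ST2-labelled minus control in log2 (y axis), for the 58 members in genome order (x axis); red points were called higher by limma over all probe sets, grey points were not called, grey lines join the probe sets of a gene and black dashes mark the gene mean. The 63 called probe sets all lie above 0, and DCLK1 and SETDB2 show the widest spread.

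Between STARD13 and WDFY2 the arrays measured 56 further genes that the list leaves out. Of these, 9 (16.1%) were called higher and 2 (3.57%) lower, beside 11.5% and 13% of all genes, and the median was 0.08. GPALPP1, the head-to-head neighbour of NUFIP1, had 0.30, 0.31 and 0.42 in HS3ST2-labelled arrays and -0.26, -0.32 and -0.39 in control arrays, a difference of 0.66 ± 0.06 (limma adjusted p 1.96e-04). NUFIP1, which starts 67 bases away, had 0.01, 0.12 and 0.06 in HS3ST2-labelled arrays and 0.04, -0.13 and -0.11 in control arrays, a difference of 0.13 ± 0.06 with overlapping groups. The promoter stretch that both share, printed above, thus lay between genes with unlike differences, a gap that was not itself tested. LHFPL6 (0.46 ± 0.08), SUPT20H (0.41 ± 0.06), PROSER1 (0.40 ± 0.06) and SPRYD7 (0.34 ± 0.07) were called higher, and the pseudogene OR7E37P was called lower (-0.37 ± 0.06; limma adjusted p 0.00504, 0.00143, 0.00296, 0.0103 and 0.00346). SUPT20H lost its call (0.07) when probe sets with the suffix _x_at or _s_at, which can match several transcripts, were left out. PROSER1 and the member NHLRC3 are also head to head, 222 bases apart, and both were above 0, while the head-to-head pair ELF1 and WBP4, 123 bases apart, gave 0.44 and 0.21. Of the 29 protein-coding genes left out of the list, 7 (24.1%) were called higher and 0 lower, beside 12.6% of all protein-coding genes called higher, against 2 and 2 of the 27 other genes.

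Flanking genes were read at both ends of the interval. Just outside the ends lay KL (-0.07 ± 0.08) next to STARD13 and DHRS12 (0.12 ± 0.05) next to WDFY2, then LINC00423 (0.06) and PDS5B (0.11) on the centromeric side and TMEM272 (0.02) and CCDC70 (-0.06) on the telomeric side. Of the 20 measured genes before STARD13, 4 were called higher and 1 lower, and of the 20 after WDFY2, 3 were called higher and 1 lower. These are 20% and 15% called higher, beside 11.5% of all genes, and nothing is read from them. The flanks hold non-coding genes too, and their protein-coding genes were not counted apart. B3GLCT, a glucosyltransferase (0.76 ± 0.06), the chaperone HSPH1 (0.71 ± 0.06) and N4BP2L2 (0.56 ± 0.09) were higher on the centromeric side, and ALOX5AP, which activates 5-lipoxygenase, was lower (-1.13 ± 0.09; limma adjusted p 1.19e-04, 1.14e-04, 0.00304 and 1.08e-04). VPS36, an ESCRT-II subunit (0.61 ± 0.08), and TDRD3, a Tudor domain gene (0.46 ± 0.06), were higher on the telomeric side and the formin gene DIAPH3 was lower (-0.27 ± 0.05; limma adjusted p 0.00107, 9.72e-04 and 0.00508). HMGB1 (0.17) and SUGT1 (0.17) passed too, but lost their calls when any single array was left out, and N4BP2L2 lost its call when those with the suffix _x_at or _s_at were left out (0.32).

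Over chromosome 13 outside the interval, 77 of 287 genes (26.8%) were called higher and 12 (4.18%) lower, with 24 of 96 higher before the interval and 53 of 191 after it. The largest difference there was 1.37, in KLF5, above the highest of the members, 0.84. On all other chromosomes 2156 of 19374 genes (11.1%) were called higher and 2557 (13.2%) lower. Non-coding genes are common on this chromosome, so the counts were also taken over protein-coding genes. Of these, 39 of 86 in the whole interval (45.3%, members and others together) and 75 of 189 elsewhere on chromosome 13 (39.7%) were called higher, where 12.6% of all protein-coding genes were. The share of the interval includes members chosen for rising in this contrast. Of its 29 protein-coding genes left out of the list, 7 (24.1%) were called higher. The label of a coordinated rise in 13q13-q14 names the chosen members, of which 32 of 58 were called higher. The same direction ran along the rest of the chromosome, and whether the interval differs from the rest of chromosome 13 was not tested.

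**Figure D3:**
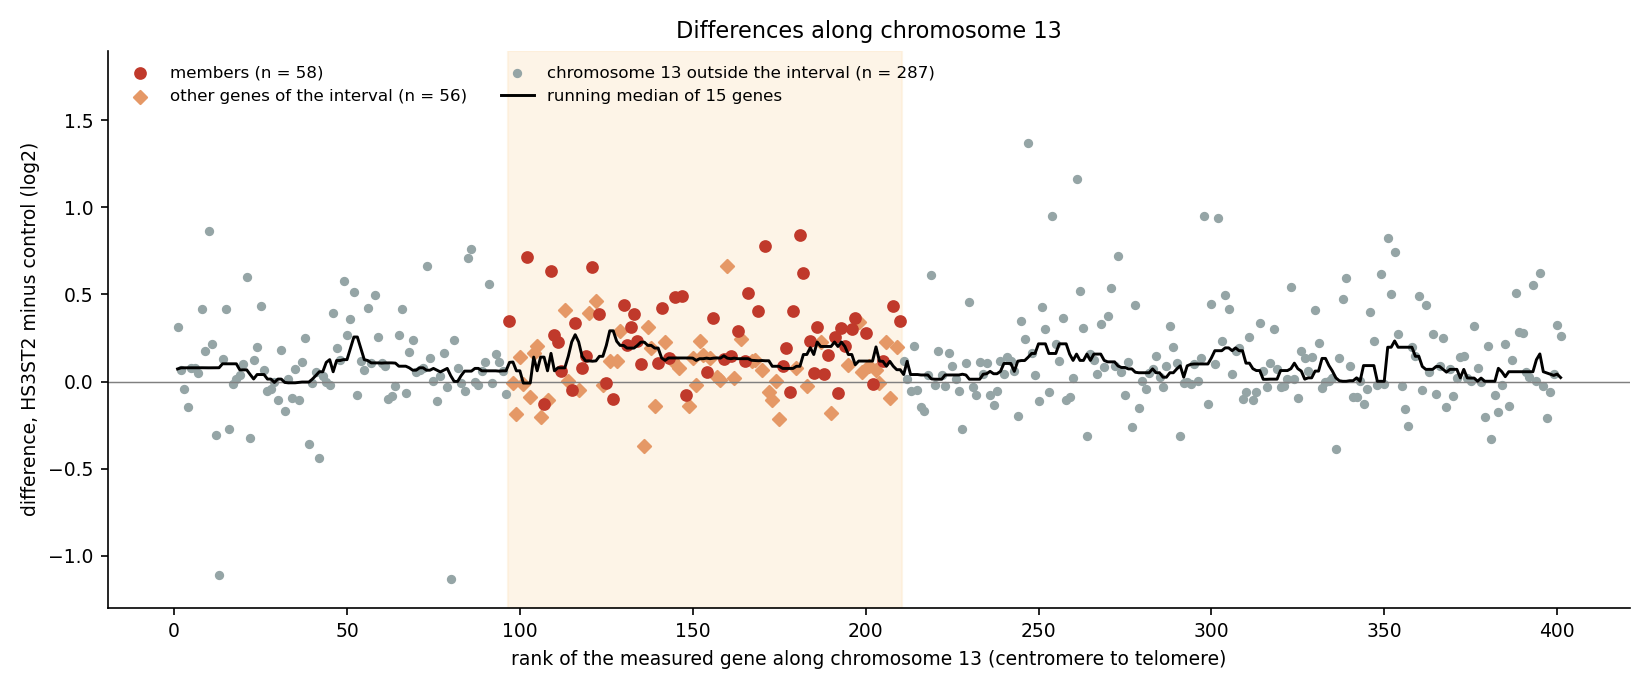
Each point is a measured gene of chromosome 13, placed by its rank from centromere to telomere (x axis) and its difference, HS3ST2-labelled minus control in log2 (y axis); red circles are the 58 members, orange diamonds the other 56 genes of the shaded interval, grey points the 287 genes outside it, and the black line is the running median of 15 genes. The line stays near or above 0 along the chromosome. Large rises lie outside the shading too, such as those of KLF5 (1.37), SCEL (1.17) and B3GLCT (0.76). Those of KLF5 and SCEL exceed the highest of the members, 0.84.

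Among 22 autosomes and X, chromosome 13 had the highest share of genes called higher, 29.4%, and the lowest share called lower, 3.49%. Its median difference of 0.09 was also the highest, ahead of chromosome 15 with 0.06. Chromosome 15 came next in the share called higher, 21.9%, and chromosome 17 had the lowest, 6.22%. The median differences of chromosomes 17 and 8 were the lowest, at -0.03 and -0.02. These shares describe the single comparison of these 6 arrays, and genes of a chromosome are not replicates. DNA copy number was not measured here.

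**Figure D4:**
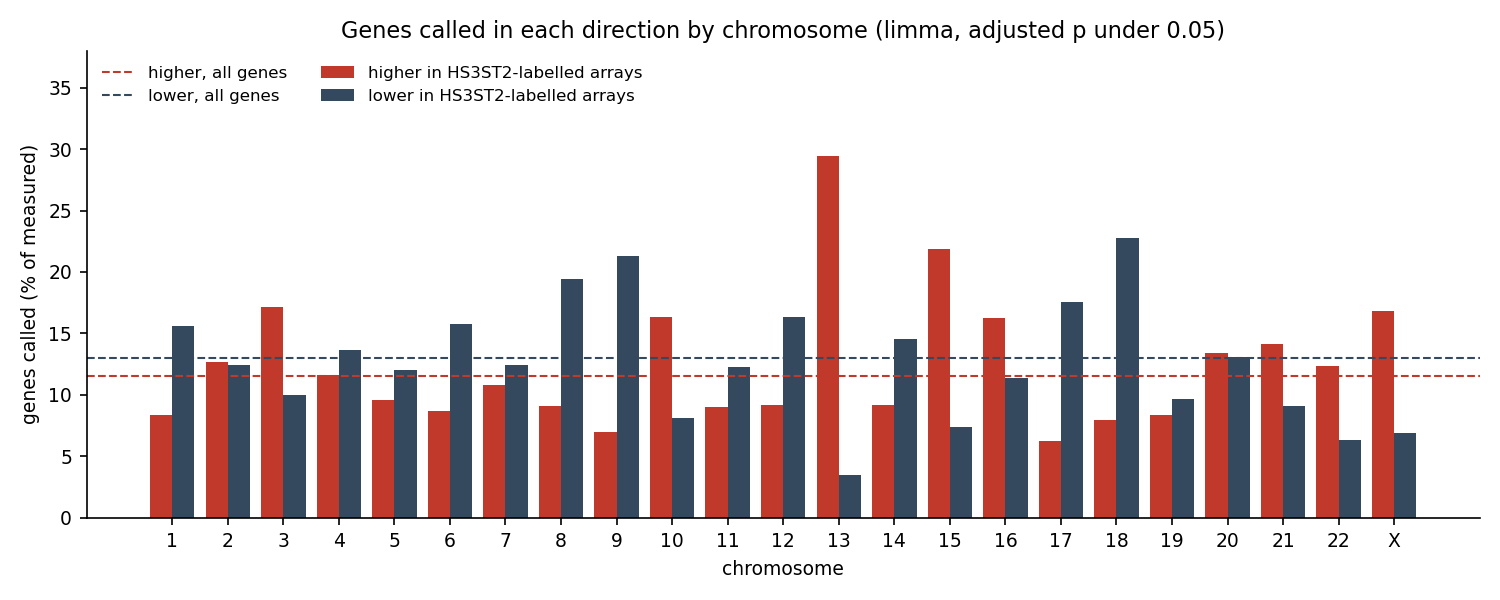
Bars give the percentage of measured genes on each chromosome (x axis) that limma called higher (red) or lower (dark) in HS3ST2-labelled arrays at an adjusted p under 0.05, and dashed lines give the same shares over all genes, 11.5% higher and 13% lower. Chromosome 13 has the tallest red bar, 29.4%, and the shortest dark one, 3.49%.

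Many members work in complexes whose other subunits are encoded elsewhere in the genome, and more of these partners were called lower than higher. The 20 partner lists, drawn up with earlier results known, held 135 measured genes, of which 3 lie on chromosome 13 outside the interval. Of all genes 11.5% were called higher and 13% lower, and of all protein-coding genes 12.6% and 15%. Of the 132 partners on other chromosomes, 14 (10.6%) were called higher and 40 (30.3%) lower, and their median was -0.11. The 3 on chromosome 13 were all called higher, namely CDK8, the kinase of Mediator (0.36 ± 0.05), DIS3, the catalytic subunit of the RNA exosome (0.35 ± 0.05), and TFDP1, the dimer partner of E2F factors (0.28 ± 0.06; limma adjusted p 0.00200, 0.00217 and 0.0133).

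In Mediator, MED4 stood at 0.84, while of 28 partners 1 was called higher, CDK8, and 7 were called lower. MED21 had -0.26, -0.30 and -0.18 in HS3ST2-labelled arrays and 0.23, 0.21 and 0.21 in control arrays, a difference of -0.46 ± 0.05 (limma adjusted p 5.84e-04), and MED8 differed by -0.40 ± 0.05 (limma adjusted p 8.08e-04). In Integrator 3 of 13 partners of INTS6 were lower and 1 higher, with INTS4 at -0.44 ± 0.05 and INTS13 at -0.41 ± 0.05, against INTS5 at 0.35 ± 0.06 (limma adjusted p 5.90e-04, 9.28e-04 and 0.00287). Of 6 further COG subunits 2 were lower and 0 higher, COG5 (-0.30 ± 0.06) and COG7 (-0.26 ± 0.06; limma adjusted p 0.00699 and 0.0120), opposite in sign to COG3 and COG6. COG5 lost its call when those with the suffix _x_at or _s_at were left out (-0.16). Among 12 partners of EXOSC8 in the RNA exosome 3 were higher and 4 lower, with EXOSC5 at -0.46 ± 0.07 and EXOSC6 at 0.35 ± 0.06 (limma adjusted p 0.00159 and 0.00294).

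Smaller complexes also held values of both signs. SUCLG2, the GTP-linked counterpart of SUCLA2, had -0.23, -0.18 and -0.20 in HS3ST2-labelled arrays and 0.12, 0.32 and 0.46 in control arrays, a difference of -0.51 ± 0.08 (limma adjusted p 0.00354), beside 0.40 for SUCLA2. RNASEH2A, the catalytic subunit of RNase H2, differed by -0.44 ± 0.05 (limma adjusted p 7.13e-04), beside 0.12 for RNASEH2B. METTL3, the m6A methyltransferase, differed by -0.55 ± 0.07 (limma adjusted p 8.58e-04), beside 0.41 for ZC3H13. RFXANK rose with RFXAP (0.36 ± 0.06, limma adjusted p 0.00396), while RFX5 was at -0.22 ± 0.06 (limma adjusted p 0.0234), a call lost without control replicate 2 or 3 or HS3ST2 replicate 2 or 3, with the _x_at and _s_at suffixes left out, and when the most variable probe set stood for the gene. DDRGK1, which helps attach UFM1, differed by -0.35 ± 0.06 (limma adjusted p 0.00524). NAA50, listed with NAA16, and CAB39, the paralog of CAB39L, differed by 0.40 ± 0.05 and 0.31 ± 0.05 (limma adjusted p 0.00104 and 0.00277).

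Receptors and gene families were read in the same way. TNFRSF11A, which encodes RANK, the receptor of RANKL, had -0.97, -0.61 and -0.38 in HS3ST2-labelled arrays and 0.47, 0.48 and 0.49 in control arrays, a difference of -1.14 ± 0.13, and the decoy receptor TNFRSF11B differed by -0.55 ± 0.10 (limma adjusted p 5.90e-04 and 0.00548). Beside RB1, the related RBL2 rose (0.53 ± 0.06) and RBL1 fell (-0.32 ± 0.06; limma adjusted p 5.00e-04 and 0.00859), and of 12 genes of the RB and E2F list 3 were higher and 3 lower. E2F8 fell (-0.63 ± 0.12) and E2F3 too (-0.29 ± 0.05; limma adjusted p 0.00630 and 0.00401). CCNA2, the cyclin A of dividing cells, fell (-0.86 ± 0.06, limma adjusted p 4.82e-05), beside -0.13 for CCNA1. Of 6 importins 1 was higher and 3 lower, with KPNA2 at -0.54 ± 0.06, KPNB1 at -0.47 ± 0.05 and KPNA5 at 0.36 ± 0.07 (limma adjusted p 5.15e-04, 5.90e-04 and 0.00532), beside 0.36 for KPNA3. KPNA2 lost its call with the _x_at and _s_at suffixes left out (-0.31). Of 7 genes of box C/D snoRNP assembly, the process of NUFIP1, 5 were lower and 1 higher, with FBL at -0.47 ± 0.05 and ZNHIT6 at 0.50 ± 0.05 (limma adjusted p 4.79e-04 and 4.00e-04). Of 14 genes of dolichol-linked sugar synthesis, the pathway of ALG5, 3 were lower and 1 higher, with DPM3 at -0.68 ± 0.10, ALG6 at -0.39 ± 0.06 and DPM1 at 0.31 ± 0.05 (limma adjusted p 0.00152, 0.00294 and 0.00303). FOXO6 rose (0.51 ± 0.07, limma adjusted p 0.00150), beside -0.01 for FOXO1. CUL3 was at 0.23 ± 0.06 (limma adjusted p 0.0257), a call lost without control replicate 1 or 2 or HS3ST2 replicate 2 or 3, and GTF2F1, the other TFIIF subunit, was at -0.19 with no call.

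**Figure D5:**
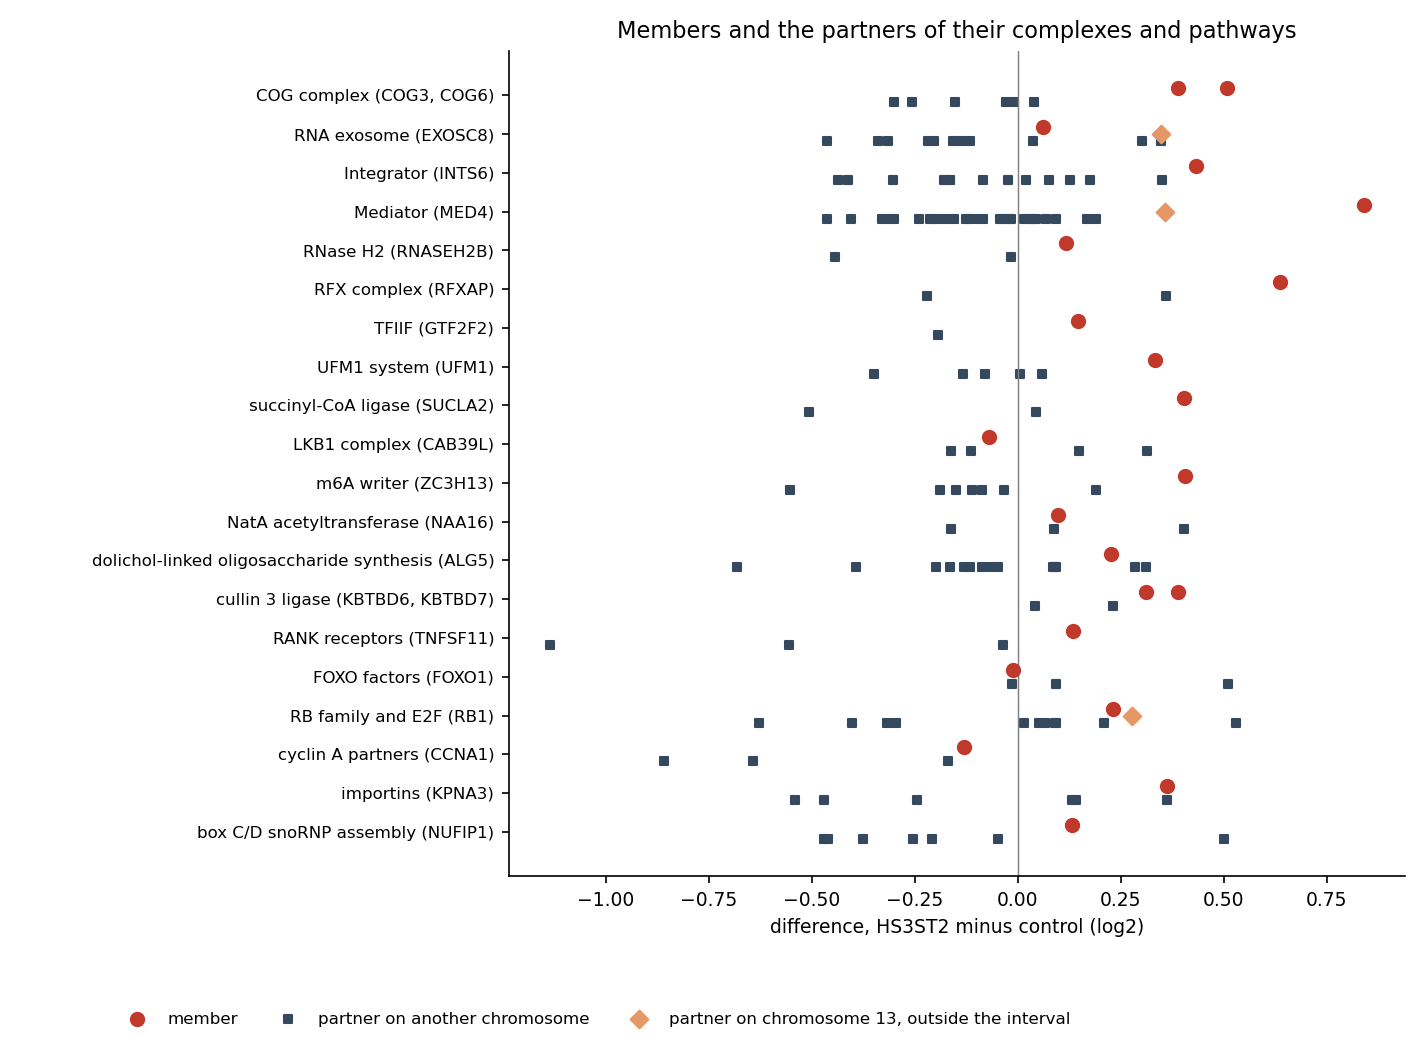
For each complex or pathway (rows), the difference HS3ST2-labelled minus control in log2 (x axis) is drawn for the member or members on chromosome 13 (red circles), for partners on chromosome 13 outside the interval (orange diamonds, n = 3) and for partners on other chromosomes (dark squares, n = 132). Most circles and all 3 diamonds lie right of 0, while the squares spread to both sides with a median of -0.11.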

How the data were processed

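Expression was measured with 6 Affymetrix arrays, each from 3.6 µg of total RNA per the labels. The deposited log2 values were made with RMA per the submitters' processing notes; each of the 54675 probe sets has a median of 0 over the arrays within 1e-06, but neither the software for that centring nor the base of the logarithm, taken as 2, is stated. After 62 control probe sets were set aside, 54613 were tested, and the 41091 with 1 gene symbol in GEO's platform annotation were averaged per gene. Current symbols (41037 matched by gene number), gene order and promoter windows came from RefSeq on GRCh38.p14; no build is named in the file. Groups were compared with limma 3.58.1 (R 4.3.3, lmFit and eBayes, no covariate), with Benjamini-Hochberg adjustment over all genes or probe sets and a threshold of 0.05. With 3 arrays a group, their number limits the precision. On simulated arrays of 19775 genes, limma called 20% of planted rises of 0.3 log2, 66% at 0.5 and 92% at 1, with 9 false calls. Far fewer genes were changed there than were called in these data, and the noise was independent between genes. These rates therefore do not give the power or error of the fit used here. Members, lists and tests were chosen with earlier results of these data known.

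Genes named are HS3ST2, every member, the other interval genes with the largest differences, the nearest and the called flanking genes, and, per list, up to 3 called partners and 2 called markers with the smallest p. CORO1A, PTPRC, AXL, CAV1, PGR, EPCAM, RBL1, TFDP1, GTF2F1, KLF5 and SCEL fall outside that rule and were chosen after their values were seen. The alternatives tried were each array left out in turn, replicate number as a block, quantile normalization, median centring, array weights, other ways to choose or average probe sets, robust eBayes and stricter thresholds.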

Additional observations from a re-analysis of the deposited data

Results flagged for a closer look

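Probe sets annotated to more than 1 gene symbol were left out of every gene, and 9 of them touch the interval between STARD13 and WDFY2. Of these 9, 3 were called higher in HS3ST2-labelled arrays than in control arrays by limma over all probe sets, and 1 was called lower. Of all probe sets, 7.9% were called higher and 8.98% lower. The comparisons do not use these 9 probe sets, and nothing is read from the count. The probe set shared by SOHLH2 and its readthrough with CCDC169 had 0.11, 0.53 and 0.59 in HS3ST2-labelled arrays and -0.55, -0.11 and -0.27 in control arrays, a difference of 0.72 ± 0.15 log2 (limma adjusted p 0.0171). A probe set shared by MIR15A, DLEU2 and DLEU2L differed by 0.62 ± 0.16 (limma adjusted p 0.0369), and another shared by MIR15A and DLEU2 was lower (-0.26 ± 0.07, limma adjusted p 0.0446). The probe set shared by MAB21L1 and MIR548F5 differed by 0.25 ± 0.07 (limma adjusted p 0.0444). Which of the annotated genes gives each signal was not tested.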

How the results depend on the processing

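Of the 32 members called higher, 32 were called under quantile normalization, median centring, array weights and robust eBayes, 26 to 29 when 1 array was left out, and 29 with a replicate block; no member was called lower or changed sign after a call under any alternative run. With 1 array left out, 27 to 29 members were called higher, counting newly called ones, beside 1729 to 1899 of all 19775 genes. With the replicate block 1990 of all genes were called higher. The members were chosen from this contrast, so nothing is read from their counts. Arrays sharing a replicate number deviated together only weakly (correlations 0.12, 0.05 and -0.08), while arrays of unlike number ran from -0.17 to 0.14. Deviations from means of 3 arrays cannot decide whether the numbers pair the arrays, and the labels do not say. The replicate block gave 4302 called genes in place of 4845.

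At an adjusted p under 0.01, 23 members, 2840 genes (1285 higher), 5 other interval genes higher, 26 partners lower and 7 chromosome 13 genes outside the interval lower were called; with a minimum of 0.3 log2 the counts were 25 members, 3011 genes (1411 higher) and 1 flanking gene lower. The count of other interval genes called lower, 2, was 1 to 3 over left-out arrays, 0 when _x_at and _s_at probe sets were left out, and 1 with the replicate block, quantile normalization, array weights, robust eBayes, the median or the largest-SD probe set, the probe set fit and both stricter thresholds. Flanking genes called higher, 7, became 11 with the largest-SD probe set and 11 in the probe set fit. Without _x_at and _s_at probe sets 23 of 113 partners were lower, in place of 40 of 135. The members' median difference, 0.24, was 0.23 to 0.28 over left-out arrays, 0.30 without those probe sets, 0.23 over probe sets and 0.40 with the largest-SD probe set, which picks the most variable one by construction. Dim probe sets could not be filtered, since centring removed the levels.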
